A study of Homo sapiens with 12 samples.

Results

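The response of GFI1-expressing A549 cells to 48 hours without attachment was measured in 6 of the 12 RNA-Seq libraries of the study, chosen by their labels: 3 libraries of attached cells and 3 of floating cells. A549 is an established human lung adenocarcinoma line that grows attached to the dish. The attached GFI1-expressing cells grew on plates treated for cell culture, and the floating ones were kept in suspension on ultra-low attachment plates, both in RPMI1640 with serum. All 6 libraries came from cells given human GFI1 by a lentivirus whose name carries the human PGK promoter (hPGK) and an eGFP marker, and GFP-positive cells were sorted for sequencing, so that the level of the introduced gene is not that of a natural GFI1 gene. The other 6 libraries, from attached and floating control A549 cells, serve as the comparison, and the labels do not state whether these controls carry an empty vector. Nothing in the labels says that the 3 libraries of a group came from separate cultures, so the p-values measure only the spread between these samples, which may be technical. Of the 58735 genes in the count table, 17829 had enough counts to be tested.

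GFI1 is a zinc-finger transcription factor known mainly as a repressor in blood cell development. Epithelial cells that lose contact with their matrix lose integrin and actin-based signals, among them those that keep the YAP coactivator in the nucleus, and many such cells die, which is called anoikis. Cells in suspension also clump, and hypoxia-inducible factors then raise genes of glucose uptake, glycolysis, pH control and blood vessel growth wherever oxygen is short. The study addressed what GFI1 does in attached and in floating cells of a lung tumor line.

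The 6 libraries held 17014188 to 20748677 counts, with 27181 to 28042 genes detected and 6.15% to 6.72% of counts from mitochondrial genes. On the first principal component of these libraries, which carried 48.9% of the variance, the attached libraries scored between -27.1 and -25.6, and the floating libraries scored 27.4, 33.9 and 17.7. Floating replicates 2 and 3 differed most, with a chi-square of 11.8 per gene, while the other pairs of replicates in these cells gave 2.01 to 4.99. Values without floating replicate 3 or replicate 2 are therefore given for printed genes that were named by the fixed rules described under processing. They are given where leaving 1 of these libraries out changed a call or moved a called log2 difference by over 1.5 times. For lists, counts without these libraries are given only in part.

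GFI1 (ENSG00000162676) was read first, since it checks the labels. Its level, in CPM (counts scaled to the size of the library by TMM), was 290, 294 and 286 in attached cells and 545, 706 and 430 in floating cells. The 2 groups did not overlap, and floating replicate 2 was highest and replicate 3 lowest. Every adjusted p below comes from the quasi-likelihood test of edgeR, adjusted after Benjamini and Hochberg. The log2 difference (floating minus attached) was 0.95 ± 0.10 (SE, adjusted p 2.38e-08). It was 1.11 without floating replicate 3 and 0.73 without floating replicate 2. The 6 control libraries held only 4 to 12 GFI1 counts. PGK1, a glycolytic kinase whose human promoter the name of the vector carries, was at 460, 459 and 455 CPM attached and 818, 993 and 682 CPM floating, in the same order of libraries as GFI1 (0.86 ± 0.08, adjusted p 2.57e-09). In control cells PGK1 rose as well, from 773 to 818 CPM attached to 1311 to 1382 CPM floating. A rise in the introduced GFI1 and the effect of suspension on these cells cannot be told apart here, and the part of either in the results below was not tested.

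Suspension changed 5577 of the 17829 genes in GFI1-expressing cells, 31.3% of those tested. Of these, 2673 were higher in floating cells (15.0%) and 2904 were lower (16.3%), and the size of the change had a median of 0.33 on the log2 scale. A 2-fold change or more was found for 353 higher and 147 lower genes, 263 and 102 of them protein coding. Over all genes tested, 7384 (41.4%) had no overlap between the attached and the floating libraries. Of these 500 genes with a 2-fold change, 268 had fewer than 10 counts in at least 1 of the 12 libraries. Without floating replicate 3 there were 5624 called genes, and 5011 of the 5577 were called again in the same direction. With bulk RNA, a change in the share of one kind of cell and a change in RNA per cell cannot be told apart.

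Rises and falls were ranked among called protein-coding genes of sufficient level (mean log2 CPM of at least 1). Only genes whose attached and floating libraries did not overlap were ranked. The 3 largest rises by this rule were in genes of hypoxia and glucose use. HK2, the hexokinase that many tumors induce, was at 0.394, 0.785 and 0.300 CPM in attached cells and at 7.94, 16.5 and 4.97 CPM in floating cells (log2 difference 4.25 ± 0.39, adjusted p 5.87e-09). LOX, which crosslinks collagen, went from 1.80, 2.22 and 1.85 CPM to 26.6, 55.0 and 9.60 CPM (3.93 ± 0.42, adjusted p 6.84e-08). NDRG1, a hypoxia-induced gene, went from 68.7, 65.8 and 66.8 CPM to 891, 1708 and 432 CPM (3.91 ± 0.27, adjusted p 4.3e-11). The lack of overlap was thus a condition of the choice. In all 3 genes the floating libraries themselves spanned more than a 3-fold range. Without floating replicate 2 the log2 differences were smaller, at 3.63 for HK2, 3.16 for LOX and 3.28 for NDRG1, and all remained past the threshold. Attached HK2 rested on 6 to 17 counts per library. PPFIA4, a synaptic scaffold gene induced by hypoxia, rose by 3.12 ± 0.13, and CA9, the membrane carbonic anhydrase used as a hypoxia marker, rose by 2.71 ± 0.23 (20.5, 28.9 and 11.2 CPM against 3.77, 2.86 and 2.65). CA9 shares genomic sequence with ARHGEF39 and LOX with SRFBP1 on the other strand, and since the strand setting of the counting was not given, reads of such pairs cannot be told apart.

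**Figure D1:**
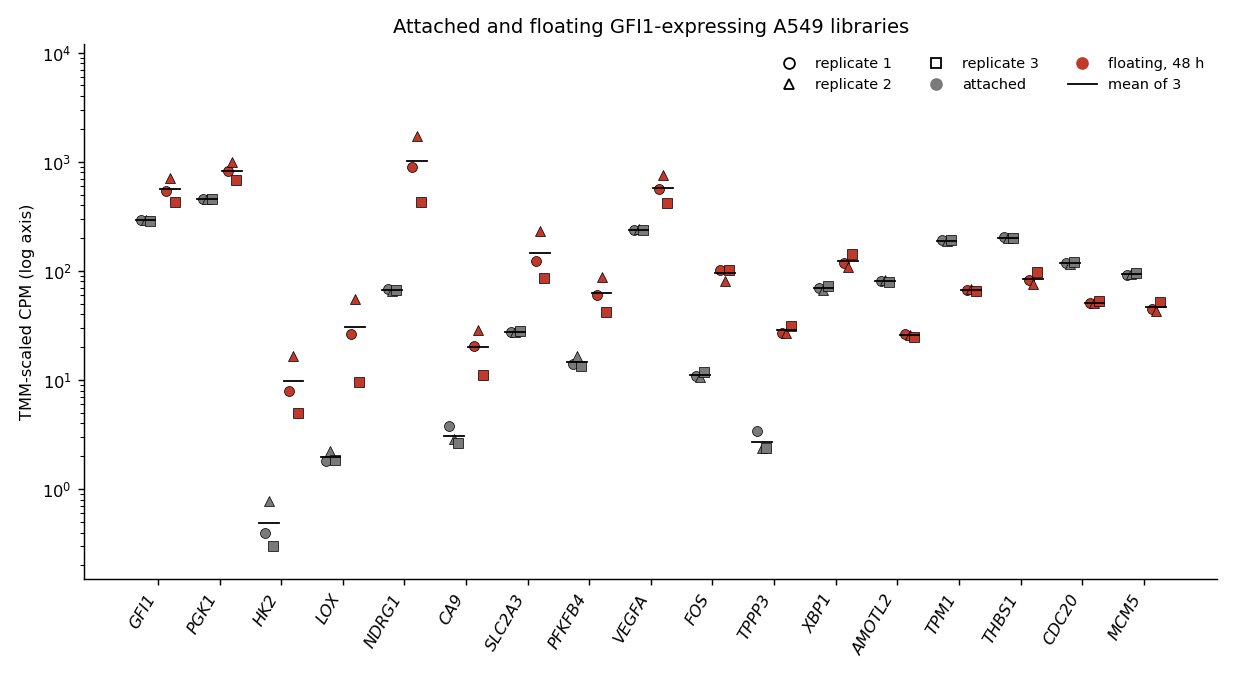
Each point is 1 library of GFI1-expressing A549 cells, with TMM-scaled CPM on a log axis, attached libraries in grey, floating libraries in red and the mean of 3 as a line. HK2, LOX, NDRG1, CA9, SLC2A3 and PFKFB4 were spread over the 3 floating libraries with replicate 2 on top and replicate 3 at the bottom, while AMOTL2, TPM1 and CDC20 were tightly grouped below their attached levels.

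All 24 genes of a list of hypoxia-induced genes outside glycolysis were higher in floating cells, with a median log2 difference of 1.20 against 0.00 over all genes tested, and 16 of them rose at least 2-fold. This and every later list was chosen with earlier results of these data known, so its count is no independent test. List counts are to be read against 15.0% higher and 16.3% lower over all genes tested. Among the secreted factors, VEGFA, the blood vessel growth factor, was at 235, 240 and 235 CPM attached and 560, 752 and 419 CPM floating (1.29 ± 0.11, adjusted p 2.52e-09), ADM, the vasodilator peptide adrenomedullin, rose by 1.70 ± 0.12, and ANGPTL4, an inhibitor of lipoprotein lipase, by 1.90 ± 0.13. BNIP3 and BNIP3L, receptors for the removal of mitochondria, rose by 1.12 ± 0.06 and 1.40 ± 0.07. P4HA1 and P4HA2, which hydroxylate collagen, rose by 1.55 ± 0.10 and 1.11 ± 0.08. HILPDA, which coats lipid droplets, rose by 2.31 ± 0.25. The smallest rise of the list was that of DDIT4, an inhibitor of mTORC1, at 0.44 ± 0.05. All 24 genes also passed the test without floating replicate 3, with a median of 1.35, and without floating replicate 2, with a median of 1.03.

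Of 8 genes of oxygen sensing itself, 3 were higher and none passed the test in the other direction. EGLN3, a prolyl hydroxylase that is itself a target of the hypoxia-inducible factors, rose by 2.05 ± 0.14, and its paralog EGLN1 by 0.49 ± 0.05. EGLN3 overlaps SPTSSA on the same strand, with mean counts of 1068 and 3692, so its value is less certain. ARNT, the constant partner of the oxygen-regulated subunits, rose by 0.18 ± 0.06 (adjusted p 0.0123), a call that was lost without attached replicate 1 (0.16) or floating replicate 2 (0.14, adjusted p 0.0914). The mRNAs of those subunits did not pass the test, at -0.08 ± 0.04 for HIF1A (adjusted p 0.149) and -0.02 ± 0.06 for EPAS1 (adjusted p 0.860). Without floating replicate 3, HIF1A passed at -0.12 (adjusted p 0.0385), and without floating replicate 2 EPAS1 passed at -0.15 (adjusted p 0.0210). These subunits are controlled largely at the level of the protein, which was not measured here.

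Of 24 genes of glucose uptake and glycolysis, 17 were higher and 2 lower, with a median of 0.44. The glucose transporter SLC2A3 was at 27.7, 27.3 and 27.9 CPM attached and 123, 231 and 86.2 CPM floating (2.40 ± 0.21, adjusted p 1.7e-09), and the more abundant transporter SLC2A1 rose by 0.59 ± 0.08. PFKFB4, which makes the activator of phosphofructokinase, went from 14.1, 16.7 and 13.4 CPM to 60.5, 87.4 and 41.9 CPM (2.09 ± 0.16, adjusted p 2.1e-10). In the later steps, GPI rose by 1.11 ± 0.10, ALDOC by 2.22 ± 0.16, ENO2 by 0.98 ± 0.07, GAPDH by 0.47 ± 0.08 and LDHA, which makes lactate, by 0.61 ± 0.06. PDK1, a kinase that inhibits pyruvate dehydrogenase, rose by 1.64 ± 0.13, and the lactate exporter SLC16A3 by 0.66 ± 0.07. The 2 members that fell were HK1, the household hexokinase (210, 207 and 208 CPM to 170, 170 and 176 CPM, -0.27 ± 0.04, adjusted p 5.43e-06), and ENO1 (-0.19 ± 0.04, adjusted p 0.000373). ALDOA was listed at only 19.9 to 34.5 CPM in these libraries and overlaps another annotated gene, so its value is uncertain. ALDOC overlaps AC005726.1 on the same strand, with mean counts of 298.9 and 105.1. Without floating replicate 3 the list gave 17 higher and 2 lower, and without floating replicate 2 it gave 16 and 2.

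The promoters below are those of the 6 genes with the largest rise in these 2 lists among those whose window in the promoter table holds ACGTG or GCGTG, and they were thus chosen for holding the core of the hypoxia response element, the sequence that the hypoxia-inducible factors bind. The following lines give the 250 bases before the start of 6 genes of these lists in RefSeq, build GRCh38.p14, 5′ to 3′ on the strand of the gene, with ACGTG or GCGTG on either strand in capitals. HK2 lies at chr2:74833877-74834126 (plus strand), LOX at chr5:122078260-122078509 (minus strand), PPFIA4 at chr1:203026241-203026490 (plus strand), CA9 at chr9:35673678-35673927 (plus strand), ALDOC at chr17:28576896-28577145 (minus strand) and PFKFB4 at chr3:48556804-48557053 (minus strand).
HK2: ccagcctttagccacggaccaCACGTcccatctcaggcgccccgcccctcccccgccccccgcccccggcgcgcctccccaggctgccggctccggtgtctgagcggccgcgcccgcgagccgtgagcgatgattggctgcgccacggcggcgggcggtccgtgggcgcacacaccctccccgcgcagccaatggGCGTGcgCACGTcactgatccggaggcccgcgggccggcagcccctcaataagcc
LOX: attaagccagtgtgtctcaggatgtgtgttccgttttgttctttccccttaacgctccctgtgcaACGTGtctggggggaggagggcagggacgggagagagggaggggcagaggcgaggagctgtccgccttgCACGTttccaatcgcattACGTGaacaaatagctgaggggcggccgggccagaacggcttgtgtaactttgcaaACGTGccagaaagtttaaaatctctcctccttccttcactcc
PPFIA4: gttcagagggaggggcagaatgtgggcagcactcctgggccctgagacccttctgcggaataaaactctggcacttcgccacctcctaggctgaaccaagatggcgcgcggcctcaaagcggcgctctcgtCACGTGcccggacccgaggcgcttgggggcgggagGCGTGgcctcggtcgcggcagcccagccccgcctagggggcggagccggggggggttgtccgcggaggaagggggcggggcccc
CA9: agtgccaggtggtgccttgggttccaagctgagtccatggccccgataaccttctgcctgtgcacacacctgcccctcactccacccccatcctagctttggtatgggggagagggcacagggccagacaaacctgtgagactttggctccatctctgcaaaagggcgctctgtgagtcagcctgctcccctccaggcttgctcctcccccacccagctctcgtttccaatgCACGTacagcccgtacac
ALDOC: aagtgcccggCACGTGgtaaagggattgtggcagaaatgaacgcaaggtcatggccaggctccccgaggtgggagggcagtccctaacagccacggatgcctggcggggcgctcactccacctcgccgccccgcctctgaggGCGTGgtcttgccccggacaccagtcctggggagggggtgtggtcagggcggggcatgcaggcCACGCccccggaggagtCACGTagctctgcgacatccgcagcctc
PFKFB4: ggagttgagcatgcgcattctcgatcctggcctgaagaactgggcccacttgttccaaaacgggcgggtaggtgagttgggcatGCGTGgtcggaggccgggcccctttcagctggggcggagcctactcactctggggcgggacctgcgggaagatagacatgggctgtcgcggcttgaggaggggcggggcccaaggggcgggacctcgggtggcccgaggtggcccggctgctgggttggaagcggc
These windows held 3 matches in HK2, 4 in LOX, 3 in PPFIA4, 1 in CA9, 5 in ALDOC and 1 in PFKFB4, where a palindromic CACGTG counts on both strands. The nearest match to the start stood 18 bases before it in CA9, 28 in ALDOC, 42 in LOX and 48 in HK2. Of the 41 members of the hypoxia and glycolysis lists that rose, 35 had a promoter in the table and 28 of those (80%) held ACGTG or GCGTG, against 11763 of all 27305 promoters of that length (43.1%). Over all 48 members tested, whether they rose or not, it was 29 of 41 with a promoter (70.7%). The hypoxia list was made of genes known to be induced by hypoxia, so a high share in it is no finding of these data. A match is a description of the letters and not a binding site.

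The 3 floating libraries did not carry these genes to the same extent. The median log2 difference of the hypoxia list from the attached mean was 1.17 in replicate 1, 1.5 in replicate 2 and 0.936 in replicate 3, and that of the glycolysis list was 0.386, 0.732 and 0.246. In floating control cells the hypoxia list gave 1.25, 1.22 and 1.17, so that control replicates lay closer together. The standard deviation of log2 CPM over the 3 floating GFI1 libraries had a median of 0.286 over the hypoxia list, against 0.0532 in attached GFI1 cells and 0.0708 in floating control cells, while over all genes tested it was 0.112, 0.0969 and 0.0974. The order of replicate 2 above replicate 1 above replicate 3 was seen for 23 of the 24 hypoxia genes (95.8%) and 16 of the 17 raised glycolysis genes (94.1%), but for 3473 of the 17829 genes tested (19.5%). It was also the order of GFI1 and of 175 of the 353 genes raised at least 2-fold (49.6%), which were chosen on these same values. These genes share their libraries, so their orders are not independent, and no test over samples was made. Depth did not follow this order, at 17132435, 17488811 and 19146265 counts, and was highest in replicate 3. The mitochondrial share was 6.30%, 6.15% and 6.72%, highest in replicate 3 and lowest in replicate 2, the reverse of the order of these genes. The part of these in the order was not tested.

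**Figure D2:**
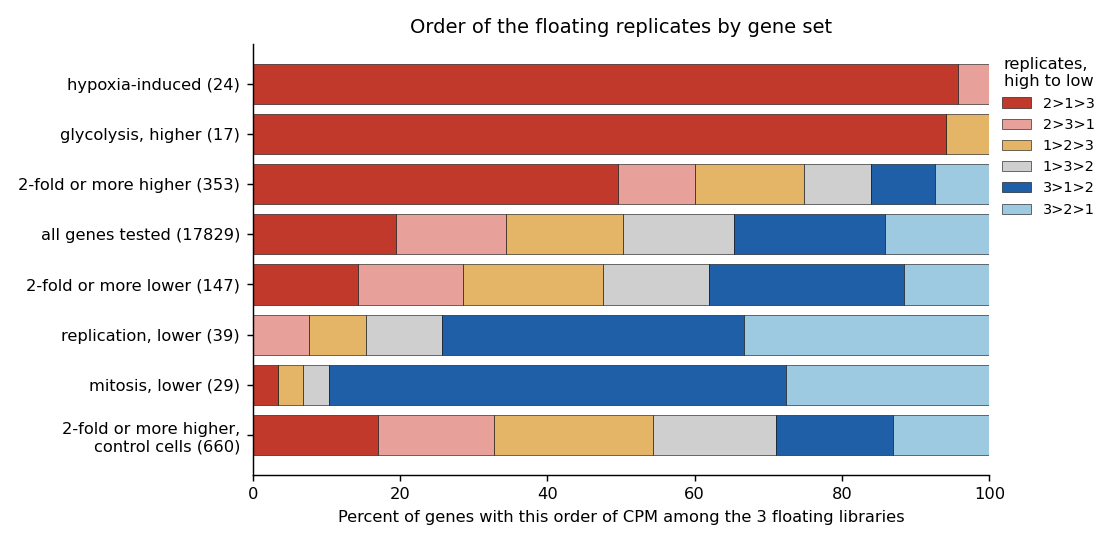
Each bar divides a set of genes by the order of their CPM among the 3 floating libraries, in percent of the set, with the number of genes in parentheses. The order 2>1>3 filled 95.8% of the hypoxia bar and 94.1% of the raised glycolysis bar, against 19.5% over all genes tested and 17% of the genes raised at least 2-fold in control cells, and for replication and mitosis genes most of the bar had replicate 3 on top.

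Among the 12 genes with the largest rise, 7 stood outside the hypoxia and glycolysis lists, and 4 of these shared that order while 3 did not. FOS, an AP-1 subunit of the immediate early response, was at 10.9, 10.8 and 11.8 CPM attached and 103, 80.4 and 101 CPM floating (3.09 ± 0.11, adjusted p 3.78e-16), and its relative FOSB rose by 2.61 ± 0.20 from 16 to 29 counts per attached library. TPPP3, a tubulin-binding protein, went from 3.38, 2.40 and 2.40 CPM to 27.0, 27.2 and 31.5 CPM (3.40 ± 0.12, adjusted p 1.03e-16). For FOS and TPPP3 the groups were far apart, though a lack of overlap was a condition of the choice. The metallothionein MT1X (6.42, 6.78 and 6.06 CPM to 35.8, 68.8 and 13.2 CPM, 2.60 ± 0.33), the creatine transporter SLC6A8 (2.48 ± 0.27), the organic anion transporter SLCO4A1 (2.44 ± 0.21) and the hyaluronan-binding protein CEMIP (2.43 ± 0.37) completed the 12 genes with the largest rise, and in each of these 4 genes replicate 2 was highest and replicate 3 lowest. Without floating replicate 2, CEMIP was at 1.58 and still passed. FOSB and CEMIP overlap ERCC1 and MESD on the other strand.

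Of 16 immediate early transcription factors tested, 6 were higher (37.5%) and 3 lower (18.8%), against 15.0% and 16.3% over all genes tested. EGR1 went from 12.3, 9.79 and 10.8 CPM to 39.0, 43.1 and 29.2 CPM (1.76 ± 0.14, adjusted p 5.09e-10), while KLF4, KLF6 and JUNB rose by 0.60, 0.52 and 0.28. MYC, the growth regulator, fell from 62.8, 63.1 and 62.0 CPM to 37.6, 41.1 and 37.2 CPM (-0.70 ± 0.06, adjusted p 4.1e-10), as did the AP-1 subunits FOSL1 (-0.76 ± 0.09) and FOSL2 (-0.54). JUN did not pass the test (-0.30 ± 0.15, adjusted p 0.139): replicate 2 at 34.2 CPM lay above the attached 28.1 to 30.7 CPM and replicates 1 and 3 at 21.4 and 15.6 CPM lay below. Without floating replicate 2 it passed, at -0.67. ATF3 was at 16.2 to 16.9 CPM attached and 15.3 to 17.3 CPM floating.

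Genes that report ERK signaling moved in both directions, with 7 of 15 higher (46.7%) and 4 lower (26.7%) and a median of 0.22. Over all genes tested the shares were 15.0% and 16.3%. The feedback genes DUSP6 and SPRY4 rose by 0.46 ± 0.09 and 0.34 ± 0.10 (SPRY4 lost its call without attached replicate 2, at 0.24, or floating replicate 1, at 0.29), the ETS factor ETV4 by 0.29 ± 0.05 and PHLDA1 by 0.43 ± 0.05. CCND1, cyclin D1, fell from 548, 578 and 555 CPM to 418, 412 and 404 CPM (-0.45 ± 0.04, adjusted p 2.02e-09), and ETV5 fell by 0.20 on the log2 scale. SPRY2 was not past the threshold (0.07 ± 0.10). Of 16 genes of RAP1 and RAS activation, 4 were higher (25%) and 2 lower (12.5%), against 15.0% and 16.3% over all genes tested. RASGRP2, the exchange factor for RAP1 that the study followed, was at 27.6, 24.6 and 24.3 CPM attached and 18.6, 19.1 and 17.1 CPM floating, with no overlap (-0.48 ± 0.10, adjusted p 0.000855). Its mean in control cells was far lower, at 1.24 CPM attached and 1.03 CPM floating. The difference between the changes in GFI1-expressing and control cells did not pass the test (-0.23 ± 0.32, adjusted p 0.735). RAP1A and RAP1B did not pass (-0.03 ± 0.06 and 0.06 ± 0.04), and RAP1GAP, which switches RAP1 off, rose by 0.22 ± 0.04.

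Genes of focal adhesions and the actin cytoskeleton were mostly lower in floating cells, with 17 of 27 lower, 5 higher and a median of -0.35. Without floating replicate 2, 20 were lower and 4 higher. TPM1, an actin-binding tropomyosin, gave the lowest adjusted p of the list, with 190, 189 and 191 CPM attached and 67.0, 68.6 and 64.9 CPM floating (-1.51 ± 0.04, adjusted p 2.35e-18). FLNA, the actin crosslinker filamin A, went from 1854, 1858 and 1863 CPM to 1087, 1219 and 1137 CPM (-0.69 ± 0.05). MYLK, the kinase of myosin light chain, lies outside the list and was chosen for its large fall. It went from 35.9, 34.7 and 36.2 CPM to 8.94, 9.98 and 11.2 CPM (-1.82 ± 0.08). The adaptors TNS3 and PXN fell by 0.91 and 0.54 on the log2 scale, beta-actin (ACTB) by 0.64 and nonmuscle myosin (MYH9) by 0.47. ACTN1, TLN1 and PTK2 passed only narrowly (adjusted p 0.0369, 0.0343 and 0.0346). The call of PTK2 was not followed when libraries were left out. ACTN1 lost its call without attached replicate 1 or 3 or floating replicate 1 or 3 (-0.12 to -0.11), and TLN1 without attached replicate 2 or 3 or floating replicate 1 (-0.11 to -0.09). Among the members that rose were BCAR1, a docking protein (0.42 ± 0.04), TNS1 (0.82 ± 0.15), TPM2 (0.34 ± 0.05) and the transcription factor SRF (0.22 ± 0.05).

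Of 22 target genes of YAP and its partner TEAD, 14 were lower and 3 higher, with a median of -0.36. AMOTL2, a feedback inhibitor of YAP, was at 80.5, 81.8 and 78.8 CPM attached and 26.5, 26.0 and 24.9 CPM floating (-1.64 ± 0.05, adjusted p 5.43e-17). CYR61, a matricellular protein, fell from 26.5, 27.9 and 27.1 CPM to 8.38, 9.37 and 9.75 CPM (-1.57 ± 0.08, adjusted p 1.1e-13), and NUAK2 fell by 1.36 on the log2 scale. ANKRD1, often the most responsive target, held 56 to 83 counts per attached library and 3 to 6 per floating library (-3.71 ± 0.33). CTGF was low in both groups (13 to 43 counts) and fell by 1.11 ± 0.23. The Hippo kinase LATS2 fell by 0.59 ± 0.09, and WWC1, an upstream member of the pathway outside the list, by 1.74 ± 0.06. The members that rose were IGFBP3, which binds insulin-like growth factors and is also induced by other signals (1106, 1209 and 1124 CPM to 3125, 3755 and 2513 CPM, 1.45 ± 0.08), F3 and NT5E. AXL did not pass (0.10 ± 0.10), but passed without floating replicate 3 (0.27).

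Integrin subunits did not fall as a group. Of 24 tested, 7 were higher (29.2%) and 2 lower (8.33%), with a median of 0.07. Over all genes tested the shares were 15.0% and 16.3%. ITGB1, the common beta chain, was at 1935, 2019 and 1982 CPM attached and 1795, 1816 and 1879 CPM floating (-0.11 ± 0.04, adjusted p 0.0309). That call was lost without attached replicate 2 (-0.09), attached replicate 3 (-0.11) or floating replicate 1 (-0.11), and the number of lower integrins was then 0. The other lower integrin fell at least 2-fold. The lower integrins numbered only 1 with DESeq2, a replicate block or robust empirical Bayes. ITGB5 rose from 539, 534 and 534 CPM to 719, 808 and 699 CPM (0.47 ± 0.05, adjusted p 1.41e-08), ITGA2 by 0.73 ± 0.13, ITGB4 by 0.51 ± 0.10 and ITGA10 by 0.43 ± 0.04. Without floating replicate 2, ITGA2 and ITGB4 were at 0.42 and 0.29 and still passed. ITGA5 rose by 0.26 ± 0.08, but was not called without floating replicate 2 (0.07) or attached replicate 1 (0.24). ITGB6 and ITGB8 held 13 counts or fewer in each of the 6 libraries and did not pass. Of 10 adhesion genes that the study named, 3 were higher and 3 lower, and since the study chose that list on these samples, it is not independent evidence of a direction. Without floating replicate 3 only 1 of those 3 higher genes was called.

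Matrix genes split, with 16 of 30 lower (53.3%) and 8 higher (26.7%) and a median of -0.23. Over all genes tested, 16.3% were lower and 15.0% higher. THBS1, a matricellular protein, was at 205, 200 and 201 CPM attached and 82.1, 76.3 and 96.9 CPM floating (-1.24 ± 0.06, adjusted p 4.86e-14). TNC fell by 1.72 ± 0.11, COL12A1 by 1.41 ± 0.08, the fibrillin FBN2 by 1.14 ± 0.05 and EFEMP1 by 0.84 ± 0.09 on the log2 scale. FN1, fibronectin, rose from 687, 667 and 679 CPM to 1105, 1157 and 1111 CPM (0.73 ± 0.04, adjusted p 3.69e-12). The laminin chain LAMB3 did not pass (0.11 ± 0.05, adjusted p 0.123).

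The remaining genes among the 12 with the largest fall, ranked by the same rule, are of varied function. DIO2, which activates thyroid hormone, was at 95.3, 115 and 103 CPM attached and 21.6, 19.96 and 25.3 CPM floating (-2.23 ± 0.07, adjusted p 5.43e-17). CPA4, a carboxypeptidase, went from 60, 61.1 and 57.9 CPM to 18.4, 18.5 and 19.8 CPM (-1.66 ± 0.08). Replicates were tight in both genes, and a lack of overlap was a condition of the choice. The kinase STK32B fell by 2.28 ± 0.16, C1orf116 by 2.14 ± 0.19, the peptide hormone APLN by 1.89 ± 0.24 and LYPD1 by 1.68 ± 0.19 on the log2 scale, all from 6.79 CPM or less in attached cells. ANXA8L1 (-1.66 ± 0.07) has a near-identical copy that can share its reads, and U2AF1, a splicing factor with a near-identical copy, rested on attached values of 14.2, 5.17 and 3.60 CPM (-1.61 ± 0.35) and lost its call with robust empirical Bayes, so both are uncertain.

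All 39 genes of the DNA replication machinery were lower in floating cells, with a median of -0.58. This list and the mitosis list below were also chosen with earlier results of these data known. MCM5, a subunit of the replicative helicase, went from 91.5, 93.3 and 96.4 CPM to 45.1, 42.5 and 51.4 CPM (-1.02 ± 0.06, adjusted p 1.81e-12), MCM6 from 92.4, 90.6 and 86.3 CPM to 47.9, 46.9 and 55.9 CPM (-0.83 ± 0.06) and RRM2, the inducible subunit of ribonucleotide reductase, from 90.8, 91.0 and 91.1 CPM to 56.2, 59.7 and 64.3 CPM (-0.60 ± 0.05). In each of these genes floating replicate 3 was highest of the 3 floating libraries and still below the attached ones. PCNA, the sliding clamp, fell by 0.34 ± 0.05. Without floating replicate 3 all 39 were called, and without floating replicate 2 it was 38. Of 6 replication genes that the study named, 5 were lower and 1, the repressor BCL6, was higher (0.76 ± 0.08), and that list too was chosen on these samples.

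The 2 replication genes below are shown for sequences that E2F factors, the regulators of S phase genes, are known to bind. They are again the 250 bases before the start (RefSeq, GRCh38.p14, strand of the gene), with TTTGGCGC, TTTCCCGC, TTTGCCGC or TTTCGCGC on either strand in capitals, where overlapping matches run together. MCM6 lies at chr2:135876444-135876693 and MCM7 at chr7:100101398-100101647, both on the minus strand.
MCM6: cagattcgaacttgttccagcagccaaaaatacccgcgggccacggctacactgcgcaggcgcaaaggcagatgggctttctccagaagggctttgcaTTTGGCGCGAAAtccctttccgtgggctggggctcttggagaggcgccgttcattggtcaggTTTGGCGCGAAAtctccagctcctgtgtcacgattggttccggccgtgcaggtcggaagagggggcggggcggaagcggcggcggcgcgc
MCM7: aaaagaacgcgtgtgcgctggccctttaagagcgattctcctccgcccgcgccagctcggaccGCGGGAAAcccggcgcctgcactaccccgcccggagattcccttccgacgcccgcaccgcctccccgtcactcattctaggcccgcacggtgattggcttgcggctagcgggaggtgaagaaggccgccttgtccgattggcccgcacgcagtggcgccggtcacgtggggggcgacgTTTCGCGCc
MCM6 held 4 matches and MCM7 held 2. Of the 39 lowered replication genes, 32 had a promoter in the table and 12 of those (37.5%) held 1 of these motifs, against 761 of all 27305 promoters (2.79%). As every member tested was lowered, this share describes the list and not its change here.

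All 29 genes of mitosis and the kinetochore were lower as well, with a median of -0.54. CDC20, which activates the anaphase-promoting complex, was at 118, 117 and 122 CPM attached and 50.6, 50.8 and 52.5 CPM floating (-1.21 ± 0.05, adjusted p 2.59e-15). PLK1 fell by 0.85 ± 0.05, MKI67, the proliferation marker Ki-67, by 0.65 ± 0.05, CCNB1 by 0.57 ± 0.05 and AURKA by 0.54 ± 0.05 on the log2 scale. The floating replicate 3 was the highest of the 3 in 26 of the 29 genes, and in 29 of the 39 replication genes, against 6190 of all 17829 genes. Without floating replicate 3, and likewise without floating replicate 2, 28 of the 29 were called.

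Of 17 regulators of G1, 8 were lower (47.1%) and 4 higher (23.5%), against 16.3% and 15.0% over all genes tested. The cyclin CCND3 fell by 0.54 ± 0.05, E2F1 by 0.46 ± 0.07, CDK2 by 0.36 ± 0.06 and RBL1 by 0.62 ± 0.06 on the log2 scale. The inhibitor CDKN1C (p57) was at 12.8, 14.5 and 12.2 CPM attached and 23.9, 33.0 and 20.5 CPM floating (0.97 ± 0.12, adjusted p 1.02e-06), CDKN1A (p21) rose by 0.32 ± 0.05 and CDKN1B (p27) by 0.18 ± 0.06. The CDKN1B call was lost without attached replicate 1 (0.16), floating replicate 1 (0.17) or floating replicate 2 (0.13, adjusted p 0.134). RBL2 was also called higher (0.14 ± 0.05) but lost its call in most of the leave-outs of 1 library of these cells, and leaving out attached replicate 1, floating replicate 1 or floating replicate 2 reduced the higher members from 4 to 2. Of 19 p53 target genes, 9 were higher (47.4%) and none passed in the other direction, with a median of 0.16. Among the higher ones were PLK3 (0.48 ± 0.09), the stress cytokine GDF15 (0.41 ± 0.10) and the death receptor TNFRSF10B (0.35 ± 0.05). Without floating replicate 2, GDF15 was at 0.18 and still passed. MDM2 did not pass (0.09 ± 0.04).

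In the BCL2 family, whose members hold back or trigger death at the mitochondrion, 4 of 16 were higher (25%) and 6 lower (37.5%). Over all genes tested the shares were 15.0% and 16.3%. MCL1, a survival protein, was at 382, 399 and 385 CPM attached and 647, 874 and 498 CPM floating (0.79 ± 0.10, adjusted p 1.53e-06), with no overlap and with floating replicate 2 highest. The survival genes BCL2L1 and BCL2 fell by 0.47 ± 0.07 and 0.60 ± 0.19 on the log2 scale. Of the triggers, BCL2L11 (BIM) fell by 0.31 ± 0.06, BID by 0.39 ± 0.07 and BMF, which responds to loss of attachment, by 0.26 ± 0.10 (adjusted p 0.0366), while BBC3 (PUMA) rose by 0.32 ± 0.07. The BMF call was lost without floating replicate 1 or 3 and without attached replicate 2 or 3. The family gave 4 higher and 4 lower without floating replicate 3, and 3 higher and 5 lower without floating replicate 2.

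Stress and metabolic programs moved less. Of 23 genes of cholesterol synthesis and uptake, 8 were higher (34.8%) and 6 lower (26.1%), against 15.0% and 16.3% over all genes tested. INSIG1, a feedback regulator, rose by 0.69 ± 0.05, and HMGCS1, an early enzyme of the pathway, fell by 0.40 ± 0.06. Of 15 ATF4 targets, 5 were higher (33.3%) and 5 lower (33.3%). TRIB3 rose by 0.89 ± 0.12 and DDIT3, which overlaps MARS on the other strand, by 0.58 ± 0.13, whereas the serine synthesis enzymes PHGDH and PSAT1 fell by 1.35 ± 0.09 and 1.00 ± 0.05. The higher members numbered 3 without floating replicate 2 and also without attached replicate 1. Of 11 endoplasmic reticulum chaperones and their regulators, 6 were higher, with XBP1 at 70.0, 66.2 and 73.3 CPM attached and 117, 108 and 142 CPM floating (0.81 ± 0.07) and HSPA5 (BiP) at 0.15 ± 0.05. The HSPA5 call was lost without attached replicate 2 (0.14) or floating replicate 2 (0.09, adjusted p 0.199). Of 19 NRF2 targets of the oxidant response, 8 were lower (42.1%) and 3 higher (15.8%). Of these, TXNRD1 fell by 0.45 ± 0.05 and HMOX1 fell by 0.53 ± 0.07 on the log2 scale. In a short list of TXNIP and its arrestin-domain relatives, 2 of 5 were higher, ARRDC3 (1.01 ± 0.07) and ARRDC1 (0.27 ± 0.06).

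Of 45 interferon response genes tested, 17 were lower and 2 higher, with a median of -0.17, and this depended on single libraries. The median was -0.202 in floating replicate 1, -0.362 in replicate 2 and 0.0451 in replicate 3. The lower members numbered 28 without floating replicate 3 and 9 without floating replicate 2, and 10 to 11 without attached replicate 2, attached replicate 3 or floating replicate 1. MX1, an antiviral GTPase, was at 53.3, 60.6 and 58.3 CPM attached and 35.9, 30.8 and 48.8 CPM floating (-0.57 ± 0.11, adjusted p 0.000201). IFIT1 did not pass with all libraries (-0.28 ± 0.12, adjusted p 0.0758): floating replicate 3 at 55.8 CPM lay above the attached 50.5 to 55.6 CPM. IFIT1 passed without floating replicate 3, at -0.51 (adjusted p 6.3e-05). IFITM1, which shares sequence with its relative IFITM2, rose by 0.30 ± 0.08, and by 0.18 without floating replicate 3.

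Most genes of the respiratory chain did not pass the test. Among the 77 mitochondrial ribosomal proteins, 40 were lower and 2 higher, with a median of -0.19, and among the nuclear-encoded respiratory chain subunits 9 of 38 of complex I and 18 of 39 of complexes II to V were lower and none passed in the other direction, against 16.3% lower over all genes. NDUFS8 fell by 0.32 ± 0.05 and CYC1 by 0.33 ± 0.05 on the log2 scale. Of the 13 mRNAs encoded in the mitochondrial genome, only MT-ND5 passed (-0.12 ± 0.05, adjusted p 0.0456), and that call was lost under several other settings. The higher mitochondrial ribosomal gene MRPS6 (0.72 ± 0.10) overlaps SLC5A3 on the same strand. Of 86 cytosolic ribosomal proteins, 24 were lower and 1 higher, and without floating replicate 2 it was 44 and 0. For complex I the counts were 12 lower and 1 higher without floating replicate 3, and 5 lower and 2 higher without attached replicate 1. The mitochondrial ribosomal list gave 34 lower and 1 higher without floating replicate 2.

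**Figure D3:**
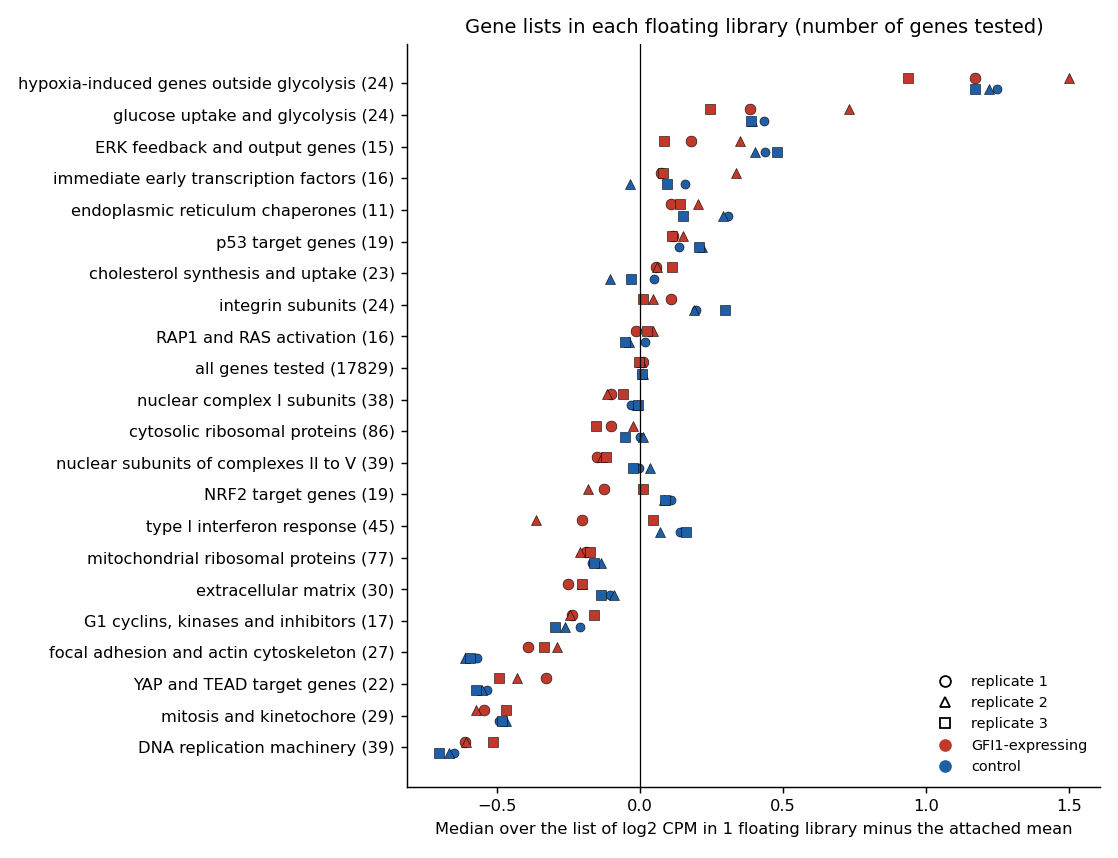
Each point is the median over a list of the log2 CPM of 1 floating library minus the mean of the attached libraries of the same cells, for GFI1-expressing cells (red) and control cells (blue), with the number of genes tested in parentheses. Hypoxia genes lay at 0.936 to 1.5 in GFI1-expressing cells and 1.17 to 1.25 in control cells, replication genes at -0.612 to -0.512, and the interferon list spread from -0.362 to 0.0451.

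The label of the cells was checked against markers. Of 6 epithelial markers, KRT8, KRT18 and KRT7 were abundant (mean of 1853, 662 and 1772 CPM attached) and 4 fell with suspension, while EPCAM had at most 16 counts in any of the 6 libraries and KRT19 lay between 1.63 and 4.43 CPM, and the summed level of the 6 was 4220 to 4340 CPM attached and 3040 to 3410 CPM floating. The surfactant genes of alveolar type II cells were near 0 in all libraries, at 14 counts or fewer, and their regulator NKX2-1 was at 0.338, 1.34 and 0.701 CPM attached and 1.88, 1.99 and 1.19 CPM floating (log2 difference 1.03, adjusted p 0.0344). These groups overlapped, and the NKX2-1 call was lost with DESeq2, in the fit of the 6 libraries alone and without attached replicate 1 or 3 or floating replicate 1 or 2 (0.70 to 0.94). The 6 markers of those cells summed to 1.86 to 2.77 CPM attached and 3.53 to 4.47 CPM floating. Of 7 blood cell markers, only CD14 was tested (0.62 ± 0.16), PTPRC reached 1 count in any library and CD3E was at 0, and the summed level was 4.56 to 5.56 CPM attached and 6.96 to 8.22 CPM floating. Of the fibroblast markers, DCN was at 0 and COL1A1 fell by 0.87 ± 0.14, and the sum of 7 was 10.3 to 11.3 CPM attached and 7.89 to 10.5 CPM floating. Neither of the 2 endothelial markers tested passed, and their sum over 5 genes was 3.65 to 5.26 CPM attached and 5.02 to 5.62 CPM floating. Of 11 genes of the epithelial to mesenchymal transition, 1 was higher (9.09%) and 2 lower (18.2%), against 15.0% and 16.3% over all genes tested. These counts give no direction for the list. CDH1 and CDH2 both fell (by 0.69 ± 0.11 and 0.70 ± 0.10) and VIM, vimentin, rose from 52.7, 46.1 and 51.3 CPM to 91.2, 128 and 74.3 CPM (0.97 ± 0.11). The part of these other cell type markers in the results was not tested.

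The same contrast was made in control cells, which share no library with those above. There, 7152 genes changed (40.1%), 3489 higher (19.6%) and 3663 lower (20.5%). Called in the same direction in both were 3850 genes, which is 69.0% of the calls in GFI1-expressing cells and 53.8% of those in control cells, and 155 were called in opposite directions. Over all 17829 genes, which are not independent replicates, the log2 differences had a Pearson correlation of 0.544. Of the 353 genes raised at least 2-fold with GFI1, 228 were also called higher in control cells, and of the 147 lowered, 98 were also called lower. The lists for hypoxia (24 of 24 higher, median 1.22), replication (38 of 39 lower, median -0.67) and mitosis (28 of 29 lower, median -0.49) had like counts and medians in control cells.

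**Figure D4:**
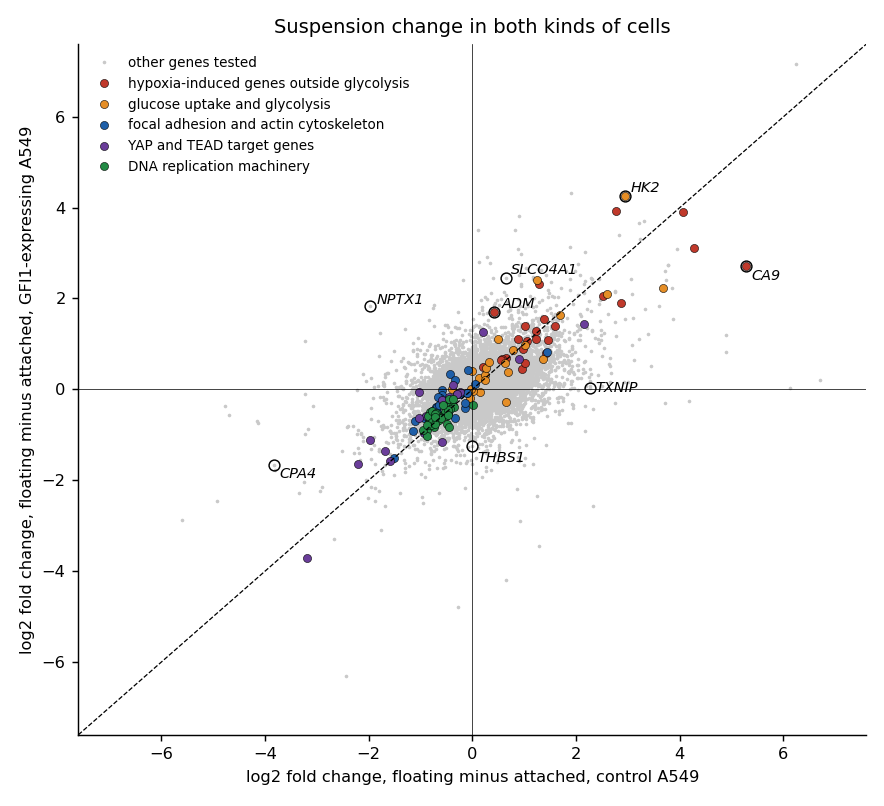
Each point is 1 of the 17829 genes tested, with the log2 fold change of suspension in control cells on the x axis and in GFI1-expressing cells on the y axis, colored by list, and the dashed line marks equal change. HK2, ADM, SLCO4A1 and NPTX1 lie above the line, CA9, TXNIP and THBS1 below it, and the replication genes cluster on it below 0.

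The difference between the suspension changes was tested directly as an interaction (change with GFI1 minus change in control cells). It passed for 1919 genes (10.8%), 848 of them positive (4.76%) and 1071 negative (6.01%). Of the 588 genes with an interaction that were called in both kinds of cells in the same direction, 472 had the smaller change in GFI1-expressing cells. Of the focal adhesion and actin genes, 15 of 27 had a positive interaction and none a negative one, and the list median was -0.35 with GFI1 and -0.60 in control cells. FLNA fell by 0.69 with GFI1 and by 1.11 in control cells (interaction 0.41 ± 0.06, adjusted p 8.01e-05), ACTN1 by 0.13 and 0.59 (0.46, adjusted p 2.61e-05), and VCL by 0.19 and 0.63 (0.44, adjusted p 1.03e-05). Their levels differed too. Mean FLNA was 1858 CPM attached and 1148 CPM floating with GFI1, against 4144 and 1922 CPM in control cells. For ACTN1 these means were 377 and 345 CPM against 475 and 315 CPM, and for VCL 267.8 and 234.5 CPM against 387.9 and 250.4 CPM. TPM2 and SRF rose with GFI1 (0.34 and 0.22) and fell in control cells (-0.44 and -0.35). The count of positive interactions in this list was 14 without floating GFI1 replicate 3 and 15 without replicate 2. TPM1 (-1.51 and -1.52) and CYR61 (-1.57 and -1.59) had interactions of 0.01 ± 0.06 and 0.03 ± 0.11, and neither passed the test.

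Hypoxia and glycolysis genes had interactions in both directions, 3 positive and 6 negative of 24 and 5 positive and 4 negative of 24. The hypoxia count was 7 and 6 without floating GFI1 replicate 3 and 3 and 10 without replicate 2. ADM rose by 1.70 with GFI1 and by 0.42 in control cells (interaction 1.28 ± 0.18, adjusted p 1.71e-05), and SLC2A3 by 2.40 and 1.25 (1.15 ± 0.28, adjusted p 0.00737). ALDOC rose by 2.22 and 3.68 (-1.46 ± 0.25, adjusted p 0.000241), KDM3A by 0.80 and 1.42 and DDIT4 by 0.44 and 0.96. HK1 fell with GFI1 and rose in control cells by 0.65, from 129 to 137 CPM to 207 to 213 CPM (interaction -0.93 ± 0.06, adjusted p 7.16e-11), and this was the glycolysis gene with the lowest adjusted p for the difference. HK2 had no called difference (1.31 ± 0.56, adjusted p 0.151).

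In some lists the interactions were mostly negative. Of the NRF2 targets, 10 of 19 were negative and none positive, with NQO1 at -0.08 with GFI1 and 0.49 in control cells (-0.57, adjusted p 3.67e-06). NQO1 was called lower with GFI1 without floating replicate 3 (-0.15). Of the interferon genes, 11 of 45 were negative and none positive, with 19 negative without floating GFI1 replicate 3 and 10 negative and 1 positive without replicate 2. IFITM1 was at 0.30 and 1.62 (-1.31, adjusted p 1.85e-05). In the BCL2 family, BMF fell with GFI1 and rose by 1.44 in control cells (-1.70, adjusted p 2.96e-06), BCL2L11 fell with GFI1 and rose in control cells by 0.36 (-0.67, adjusted p 9.49e-05), and BBC3 rose by 0.32 and 1.09 (-0.77, adjusted p 1.23e-05). BMF was at 21.3, 24.6 and 21.6 CPM in attached GFI1-expressing cells and 19.2, 19.0 and 18.2 CPM floating, against 1.32 to 2.20 CPM in attached and 3.67 to 4.8 CPM in floating control cells, so its level stayed higher with GFI1 throughout. DUSP6, SPRY4 and ETV4 rose in both kinds of cells and less with GFI1 (interactions of -0.76, -0.70 and -0.53). Mean DUSP6 was higher with GFI1, at 24.6 CPM attached and 33.9 CPM floating against 7.45 and 17.3 CPM in control cells. SPRY4 was lower with GFI1 (7.72 and 9.76 CPM against 18.13 and 37.45 CPM), as was ETV4 (37.1 and 45.3 CPM against 57.0 and 100.3 CPM). PCNA fell with GFI1 and was at 0.01 in control cells (-0.36, adjusted p 0.00100), and THBS1 fell by 1.24 with GFI1 and was at 0.00 in control cells (-1.24, adjusted p 2.81e-10).

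The 12 protein-coding genes with the largest interactions are best read with their levels. NPTX1, a neuronal pentraxin, was at 186, 189 and 187 CPM in attached and 661, 1027 and 309 CPM in floating GFI1-expressing cells, and at 21.4, 22.3 and 23.0 CPM in attached and 6.34, 5.06 and 5.61 CPM in floating control cells. It thus rose by 1.83 ± 0.21 with GFI1 and fell by 1.97 in control cells, and no library of one group overlapped another. TXNIP, an inhibitor of thioredoxin and of glucose uptake, was at 7.61, 6.51 and 7.11 CPM attached and 7.28, 6.12 and 8.31 CPM floating with GFI1 (0.04 ± 0.14, adjusted p 0.868), and rose from 1.49, 1.68 and 1.55 CPM to 7.47, 6.32 and 9.12 CPM in control cells (2.27). The 6 TXNIP values with GFI1 (6.12 to 8.31 CPM) thus lay near those of floating control cells (6.32 to 9.12 CPM) and above those of attached control cells. PRICKLE1, a planar polarity gene, and RFTN1, a lipid raft gene, showed the reverse: both fell in control cells (-1.90 and -1.70) and were at 1.18 to 1.43 and 1.75 to 2.70 CPM in attached GFI1-expressing cells, near the floating control levels of 1.42 to 1.59 and 2.27 to 3.14 CPM. TCN1, TRIM31 and LGALS9B were each lower in every control library, attached or floating, than in any GFI1 library, and rose in control cells by 1.91 to 2.29. CA9 rose from under 0.5 CPM (0.298, 0.326 and 0.459) to 12.9, 15.4 and 14.5 CPM in control cells, a rise of 5.28 against 2.71 with GFI1, whose attached libraries already held 2.65 to 3.77 CPM.

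**Figure D5:**
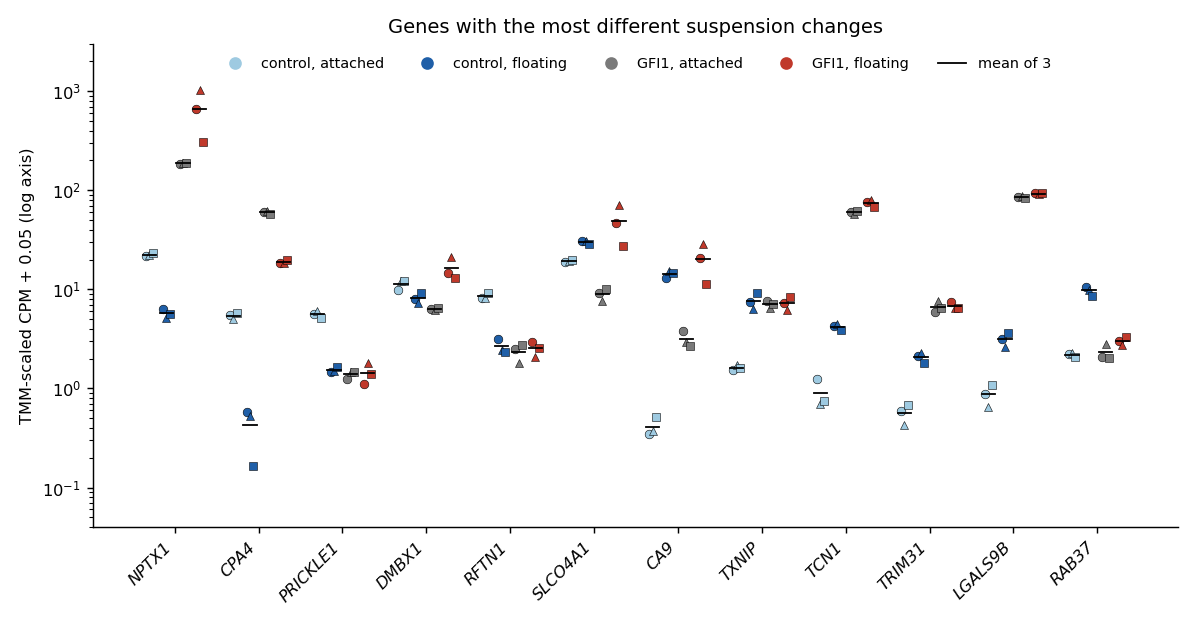
Each point is 1 library, with TMM-scaled CPM + 0.05 on a log axis, for the 12 protein-coding genes with the largest difference between the suspension changes, in attached and floating control cells (light and dark blue) and attached and floating GFI1-expressing cells (grey and red), with the mean of 3 as a line. NPTX1 moved in opposite directions, while TXNIP, PRICKLE1 and RFTN1 moved in control cells to near the level that GFI1-expressing cells had in both conditions.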

How the data were processed

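RNA-Seq was measured in 12 libraries, 3 in each of 4 groups given by the labels. The authors deposited 1 table of raw gene counts, not normalized. The study's methods name FastQC, Hisat2, featureCounts and DESeq2, while the submitters' processing notes name Bowtie2 and HTSeq with build hg38, and the annotation release and strand setting are not given in the sources used here. From these counts, genes were kept with filterByExpr (minimum count 10, minimum total count 15), scaled by TMM and tested with edgeR 4.0.16 in R 4.3.3 by the quasi-likelihood test in 1 fit of all 12 libraries with 4 group means. P-values were adjusted by the Benjamini-Hochberg method over 17829 genes, and genes at an adjusted p of at most 0.05 were called. The standard error is the log2 difference divided by the square root of its F statistic. The kept genes held 99.819% to 99.874% of the counts of a library, and the biological coefficient of variation was 4.86%, which sets the precision together with depth.

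Named genes were the key members of each list and the member of each list with the lowest adjusted p in either direction. Also named were the 12 called protein-coding genes with the largest rise and the 12 with the largest fall. Both were taken from genes whose mean log2 CPM over the 6 libraries reached 1 and whose attached and floating CPM did not overlap. The last were the 6 called protein-coding genes with the largest interaction in each direction, where mean log2 CPM over 12 libraries reached 1. The members and lists were chosen with earlier results of these data known. Alternatives were DESeq2 1.42.0, other scalings and filters, robust empirical Bayes, a replicate block, a fit of the 6 libraries alone and leaving out each library. The fitting code was tested on simulated data. The labels state no pairing by replicate number, and none was used in the main fit. Deviations of same-numbered attached and floating libraries correlated at 0.00565, 0.00274 and 0.00227 over all genes tested. Such a correlation cannot exclude a shared culture or batch that affects some genes. Values of some single list members are not reported here.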

Additional observations from a re-analysis of the deposited data

Results flagged for a closer look

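The change with suspension differed between GFI1-expressing and control cells, by the interaction term in edgeR's quasi-likelihood test, for the 12 genes with the largest differences (change with GFI1 minus change in control cells, log2). The positive differences were 3.797 for NPTX1 (adjusted p 1.24e-06), 2.167 for CPA4 (4.94e-06), 1.941 for PRICKLE1 (0.000136), 1.834 for DMBX1 (1.28e-06), 1.827 for RFTN1 (3.45e-05) and 1.795 for SLCO4A1 (0.000137). DMBX1 rose by 1.37 with GFI1 and was at -0.47 in control cells, CPA4 fell by 1.66 and 3.83, and SLCO4A1 rose by 2.44 and 0.65. The negative differences were -2.57 for CA9 (adjusted p 0.00248), -2.234 for TXNIP (2.57e-07), -1.966 for TCN1 (8.47e-07), -1.935 for TRIM31 (0.000108), -1.788 for LGALS9B (1.24e-06) and -1.781 for RAB37 (1.71e-05). RAB37 did not pass with GFI1 (0.39) and was at 2.01 to 2.23 CPM in attached and 8.61 to 10.6 CPM in floating control cells. All 12 differences passed when any 1 of the 12 libraries was left out, with NPTX1 between 3.32 and 4.14 and CA9 between -2.94 and -2.27. With robust empirical Bayes CA9 did not pass (adjusted p 0.102), and SLCO4A1 passed narrowly (0.0473). LGALS9B has near-identical copies, and PRICKLE1 and RFTN1 overlap PPHLN1 and OXNAD1, so that their counts are uncertain.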

How the results depend on the processing

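No gene called both with all libraries and under an alternative changed its sign between them. Some medians near 0 did, among them the ATF4 list (0.01, and -0.08 without floating GFI1 replicate 2), the epithelial to mesenchymal list (0.10, and -0.05 without replicate 3) and the fibroblast markers (0.20, and -0.37 without replicate 2), as did AXL, which was not called (0.10, and -0.12 without replicate 2). The 5577 genes changed with GFI1 ranged from 4973 (DESeq2) to 5634 (robust empirical Bayes), and from 4664 to 5624 when 1 library was left out. The control count of 7152 ranged from 6343 to 7419 and the interaction count of 1919 from 1481 to 2090 when 1 library was left out. The 500 genes with a 2-fold change ranged from 442 (without floating GFI1 replicate 2) to 627 (without floating GFI1 replicate 3) when 1 library was left out, the 353 higher from 280 to 453 and the 147 lower from 143 to 174. With DESeq2 they were 377, 265 and 112. Requiring at least 10 counts in every library left 14323 genes to test and gave 233 genes with a 2-fold change, 163 higher and 70 lower, since 268 of the 500 do not reach that count. Of the 5577 genes, 5011 were called without floating replicate 3 and 4538 without floating replicate 2. With the replicate number as a block, 5546 genes were called and 5448 of them were shared. Among named genes the block ended the call of MT-ND5 and added that of IFIT1. Of the 199 named genes over all alternatives, 4064 values stayed on the same side of the threshold, 78 lost a call and 17 gained one. Low counts limit the genes at a few CPM.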

Other observations

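The genes below lie outside the lists and were chosen after their values were seen. PLIN2, which coats lipid droplets, was at 36.8, 33.5 and 31.9 CPM attached and 173, 242 and 135 CPM floating (2.43 ± 0.13). SCD, which desaturates fatty acids, was at 820, 823 and 821 CPM attached and 2153, 2527 and 2201 CPM floating (1.48 ± 0.05). The sterol exporter ABCG1 rose by 1.56 ± 0.12 and the lipoprotein receptor LRP1 by 2.30 ± 0.20. In all 4 genes the groups did not overlap, and in all 4 replicate 2 was the highest floating library.

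The chemokines CXCL5 and CXCL1 fell by 1.15 ± 0.05 and 0.91 ± 0.07 on the log2 scale, the cytokine IL11 by 1.28 ± 0.14 and the urokinase PLAU by 1.42 ± 0.08. The keratin KRT80 was at 213, 222 and 211 CPM attached and 68.7, 82.5 and 68.2 CPM floating (-1.56 ± 0.05), whereas KRT20 rose by 2.23 ± 0.24 from 0.620 to 1.15 CPM attached. The cadherins CDH16 and CDH17 rose by 1.95 ± 0.13 and 1.88 ± 0.12, and the water channel AQP1 went from 1.07, 1.34 and 1.85 CPM to 6.45, 6.12 and 6.37 CPM (2.14 ± 0.20). PTGS2, cyclooxygenase 2, was at 12.4, 12.6 and 11.4 CPM attached and 25.4, 30.8 and 27.1 CPM floating (1.19 ± 0.07).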
